A study of Mus musculus with 8 samples.

Results

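Fatty acid oxidation genes and targets of the PPAR nuclear receptors were examined in RNA of epithelial cells that line the mouse colon. The set held 34 genes of the 55487 in the deposited table, found by gene symbol, and 32 of them passed the filter on low values (1 TPM or more in 4 or more of the 8 libraries). It comprised 4 regulators, 6 genes of fatty acid binding, uptake and activation, 16 genes of mitochondrial steps (4 of the carnitine shuttle, 7 of the oxidation spiral, 2 that handle existing unsaturation and 3 of electron transfer), 4 genes of peroxisomal steps, Eci2, whose product works in both organelles, and 3 PPAR targets outside the oxidation pathway. All were compared between 4 libraries of wild type (WT) mice and 4 of mice labelled PIM1+/-, a heterozygous genotype at Pim1, which encodes a serine/threonine kinase. Both genotypes were on the C57BL/6J strain. The sources used here give no age, sex, treatment or structure of the Pim1 allele. Nor do the labels state that each library is a separate animal, and the p-values therefore describe only how far these libraries spread.

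Colonic epithelial cells burn fatty acids, among them the short-chain acids made by gut bacteria. Long-chain acids are activated to acyl-CoA, carried into mitochondria as carnitine esters and shortened in repeated turns of dehydrogenation, hydration, oxidation and thiolysis, with the electrons passed to the respiratory chain through the electron transfer flavoprotein. Peroxisomes run a parallel set of reactions with their own enzymes on very long and branched chains. PPAR-alpha, PPAR-delta and PPAR-gamma are nuclear receptors that bind fatty acids and raise transcription of many of these genes, PPAR-alpha chiefly in liver and gut, and PGC-1alpha is a co-activator of theirs.

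Levels are in TPM, transcript abundance per length scaled to a fixed sum per library, and group values are mean ± SD (n = 4 per genotype). Each log2 fold change is PIM1+/- over WT ± SE of log2(TPM + 1), a scale on which changes of weakly expressed genes come out too small. Each adjusted p is from limma with Benjamini-Hochberg adjustment at a threshold of 0.05, over 12760 genes unless another scaling or filter is named. The read depth is unknown, since TPM does not retain it. The libraries listed 12582 to 12850 genes at 1 TPM or more. Epithelial markers were abundant (Epcam, an epithelial adhesion molecule, averaged 1226 TPM in WT), and of 13 small intestinal enterocyte markers 9 passed the filter, with the brush border protease gene Mep1a highest at 119 TPM in WT, while Apoa4 and Lct were at or below 0.51 TPM in every library. Pim1 itself measured 8.79, 7.86, 5.72 and 8.83 TPM in WT and 7.97, 7.23, 5.64 and 5.84 TPM in PIM1+/-, with overlap between genotypes and no call (log2 fold change -0.19 ± 0.15, limma adjusted p = 0.411).

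Of the 32 tested members, 4 rose (Pparg, Fabp2, Eci1 and Etfa) and 3 fell (Plin2, Ppargc1a and Hadhb) in PIM1+/-, and 25 did not pass the test. These shares, 12.5% and 9.38%, stood beside 8.93% of all tested genes called higher and 8.54% called lower (17.5% in either direction), so the set as a whole was called about as often as other genes. The genotypes did not overlap for 10 members, 4 above and 6 below, against 23.5% of all tested genes (11.9% above and 11.6% below). The median log2 fold change of the members was -0.04, beside -0.01 over all tested genes, and none of them reached a log2 fold change of 1 in either direction. The summed level of all 34 genes was 3345 ± 137 TPM in WT and 3562 ± 93.0 TPM in PIM1+/-. By level, averaged over all 8 libraries, Fabp2 (624 TPM), Etfb (354 TPM), Hadh (263 TPM) and Etfa (208 TPM) led the set, and Ppara (7.09 TPM), Acaa1b (6.92 TPM) and Angptl4 (1.42 TPM) were lowest among the tested members. Fewer cells of a type and less RNA per cell cannot be told apart in these bulk libraries.

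**Figure D1:**
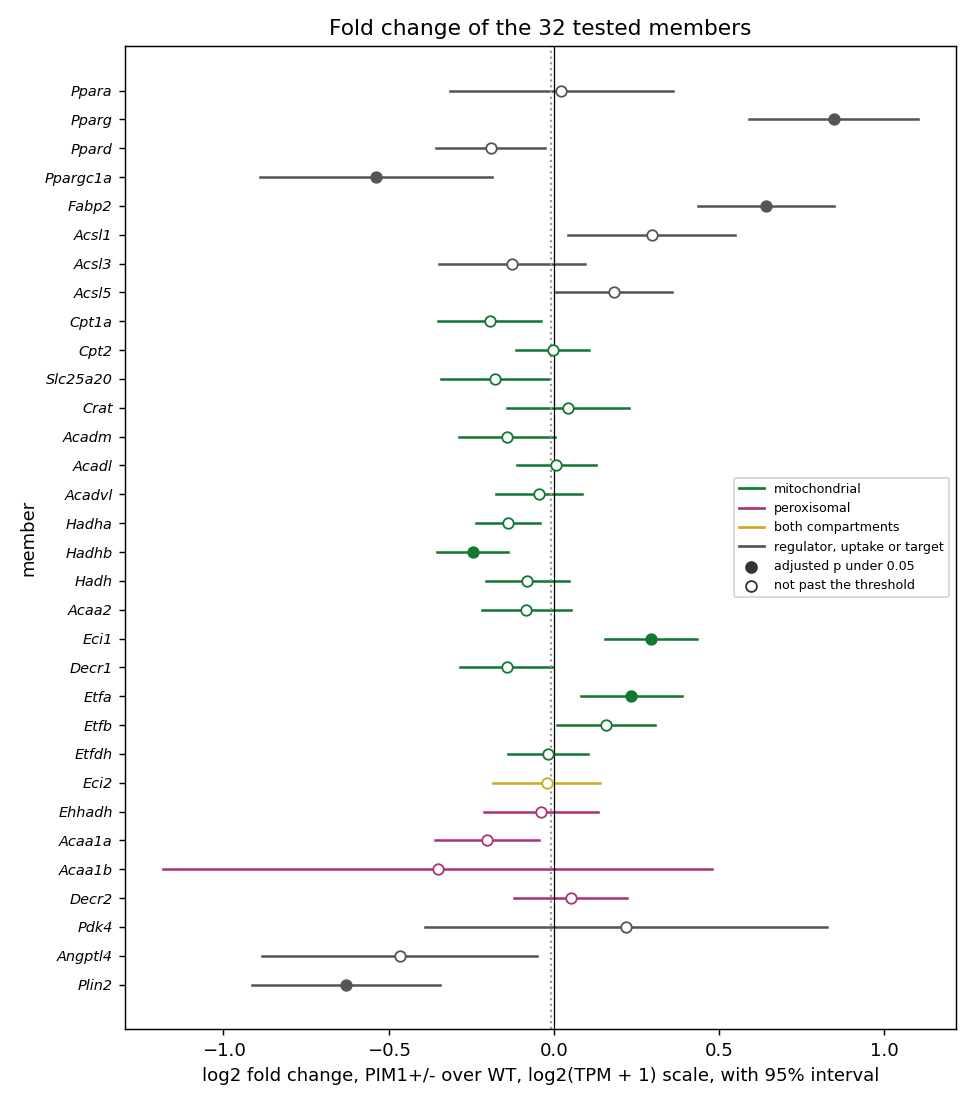
Log2 fold change of the 32 tested members, PIM1+/- over WT on the log2(TPM + 1) scale, with 95% intervals. Filled points passed the adjusted p threshold, colours mark the compartment, and the dotted line is the median of all tested genes at -0.01. The 7 called members lie between -0.63 (Plin2) and 0.85 (Pparg), and the mitochondrial members between -0.25 and 0.29.

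Upstream sequences are shown for a gene pair that shares its start region and for a fallen and a risen lipid-handling gene, which differ in base composition and in a receptor half-site. Hadha and Hadhb, the paired subunits of the mitochondrial trifunctional protein, start back to back on chromosome 5 (Hadha 30118304 to 30155162 on the minus strand and Hadhb 30155248 to 30184593 on the plus strand, GRCm38), and the whole interval between their annotated exons is 85 bases. Plin2, which encodes a lipid droplet coat protein and fell, and Fabp2, which encodes the intestinal fatty acid binding protein and rose, are shown as exon-free bases just upstream of the annotated start. All are in RefSeq's GRCm38.p6 sequence and read 5′ to 3′ on the strand given, with capitals marking the PPAR half-site letters AGGTCA or their reverse complement TGACCT.
Hadha-Hadhb interval, chr5:30155163-30155247, plus strand: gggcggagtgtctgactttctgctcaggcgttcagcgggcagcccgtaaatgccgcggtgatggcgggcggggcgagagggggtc
Plin2, chr4:86670061-86670309, minus strand: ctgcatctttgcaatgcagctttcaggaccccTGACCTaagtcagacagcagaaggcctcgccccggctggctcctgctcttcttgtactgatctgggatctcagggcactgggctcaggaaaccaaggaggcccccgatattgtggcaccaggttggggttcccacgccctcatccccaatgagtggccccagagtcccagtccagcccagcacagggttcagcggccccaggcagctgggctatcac
Fabp2, chr3:122894952-122895071, plus strand: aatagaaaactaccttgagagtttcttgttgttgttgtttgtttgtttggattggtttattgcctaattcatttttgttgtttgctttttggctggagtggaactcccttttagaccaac
The interval between the trifunctional genes is GC-rich (69.4%), as is the Plin2 stretch (61.4%), whereas the Fabp2 stretch is AT-rich (GC 35.0%).

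RefSeq windows from 250 bases before to 50 after the start were found for 30 of the 34 genes, 33 windows in all, and were searched on both strands for the spaced repeat that PPARs bind together with RXR. The strict form AGGTCANAGGTCA was in 13 of 32851 promoters of all genes (0.0396%) and in 0 of the 33 member windows. The looser form AGGNCANAGGNCA was in 125 promoters (0.381%) and in 1 member window, that of Fabp1. The single half-site AGGTCA, which the longer motifs contain, was in 16.3% of all promoters and in 8 member windows of 7 genes (Acadm, Acadvl, Cd36, Cpt1a, Fabp1, Plin2 and Pparg). In Plin2 the match begins at position -218 relative to the RefSeq start, farther out than the 120 bases printed for Fabp2, whose full window held none. Of the called members only Plin2, which fell, and Pparg, which rose, held the half-site. These are letter matches in short windows and describe no binding.

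Of the receptor genes, Pparg was called and Ppard and Ppara were not. Pparg, which encodes the receptor best known from fat cells and also expressed in colonic epithelium (chromosome 6, 115360951 to 115490399), measured 64.1, 59.6, 49.9 and 64.7 TPM in WT and 128, 104, 109 and 91.5 TPM in PIM1+/-, each in the order of replicates 1 to 4, as in all such series here. Every PIM1+/- library was above every WT library, and the mean rose from 59.6 ± 6.82 to 108 ± 15.4 TPM (ratio 1.82, log2 fold change 0.85 ± 0.11, limma adjusted p = 0.00165). Ppard, the receptor expressed in most tissues, measured 136, 134, 119 and 120.4 TPM in WT and 98.9, 111, 118 and 118 TPM in PIM1+/-. All PIM1+/- libraries lay below all WT libraries, yet by so little that the difference missed the threshold (-0.19 ± 0.07, limma adjusted p = 0.104). As a ratio within each library, Pparg over Ppard was 0.418 to 0.537 in WT and 0.777 to 1.30 in PIM1+/-, so Pparg approached or passed Ppard in PIM1+/- after lying well under it in WT. Ppara, the fasting-responsive receptor, was low and overlapped fully, at 7.08 ± 1.58 TPM in WT and 7.10 ± 0.766 TPM in PIM1+/- (0.02 ± 0.15, 95% interval -0.32 to 0.36, limma adjusted p = 0.941).

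Ppargc1a, which encodes the co-activator PGC-1alpha (chromosome 5, 51454250 to 51567726), fell. Its levels were 14.8, 12.1, 14.6 and 16.8 TPM in WT and 6.77, 10.6, 10.5 and 11.5 TPM in PIM1+/-. The genotypes did not overlap, and PIM1+/- replicate 1 was lowest of all 8 libraries. The mean went from 14.6 ± 1.95 to 9.82 ± 2.08 TPM (ratio 0.674, -0.54 ± 0.16, limma adjusted p = 0.0431). This call lay close to the threshold and was lost without WT replicate 1, 3 or 4 (limma adjusted p = 0.0967, 0.0892 and 0.108) or PIM1+/- replicate 1, 2 or 3 (limma adjusted p = 0.0521, 0.0647 and 0.0661), although the log2 fold change stayed between -0.62 and -0.39. It was also lost without limma's mean-variance trend, with upper quartile scaling and without the filter on low values (limma adjusted p = 0.0539, 0.0526 and 0.107). Among 14 PPAR partner and co-regulator genes, of which 13 were tested, none was called higher and 1 lower, beside 8.93% and 8.54% of all tested genes. The lower gene was Nrip1, a co-repressor and co-regulator of nuclear receptors (19.6 ± 1.57 to 15.1 ± 1.51 TPM, -0.36 ± 0.09, limma adjusted p = 0.0228). The median over that list was 0.02.

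**Figure D2:**
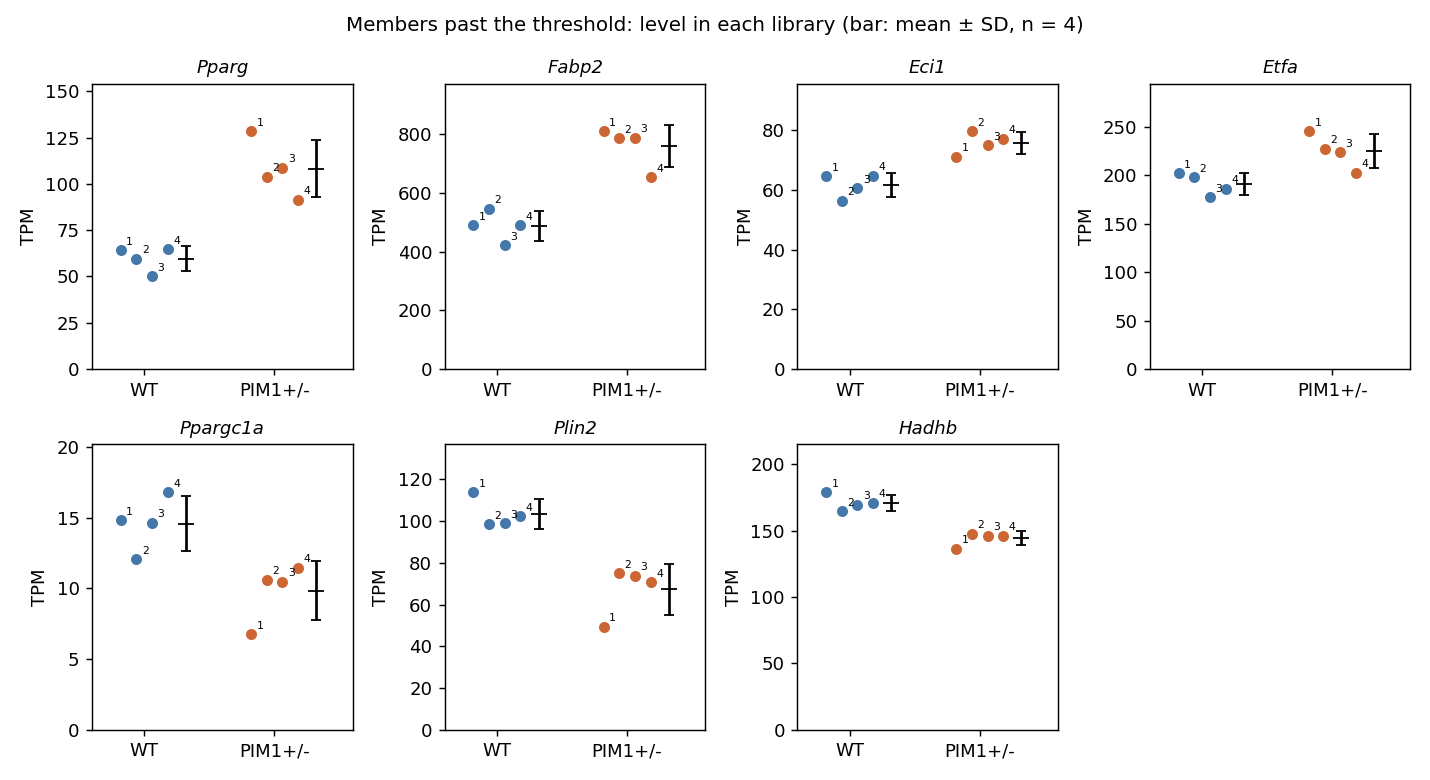
Level in TPM of each of the 7 called members in every library, with replicate numbers beside the points and bars for mean ± SD (n = 4 per genotype). Pparg, Fabp2, Eci1 and Etfa are higher in all PIM1+/- libraries, Etfa by the narrowest gap (202.5 against 203.1 TPM), and Ppargc1a, Plin2 and Hadhb are lower in all of them.

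Of the genes that bind, take up and activate fatty acids, Fabp2 was the most abundant and the one that rose. Fabp2 (chromosome 3, 122895072 to 122899506) measured 491, 546, 422 and 491 TPM in WT and 811, 788, 789 and 654 TPM in PIM1+/-. The genotypes were well apart, with PIM1+/- replicate 4 nearest to WT, and the mean went from 487 ± 51.0 to 760.4 ± 71.7 TPM (ratio 1.56, 0.64 ± 0.09, limma adjusted p = 0.00237). The liver-type binding protein gene Fabp1 was listed at 0.22, 0.88, 0.23 and 0.62 TPM in WT and 1.22, 0.63, 0.25 and 0.46 TPM in PIM1+/-, and the fatty acid translocase gene Cd36 at no more than 0.11 TPM in any library. Both genes, which are strongly expressed in the upper small intestine, stayed under the filter and were not tested.

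The acyl-CoA synthetase genes, whose products activate long-chain acids, did not pass the test. Acsl1 was steady in WT at 8.13, 8.18, 8.63 and 8.02 TPM and measured 11.5, 10.8, 11.6 and 8 TPM in PIM1+/-. Replicates 1 to 3 of PIM1+/- lay above WT and replicate 4 lay at the WT level (0.30 ± 0.11, limma adjusted p = 0.101), and without PIM1+/- replicate 4 Acsl1 passed the threshold (0.41, limma adjusted p = 0.0108). Acsl5 measured 34.04 ± 3.41 TPM in WT and 38.7 ± 2.09 TPM in PIM1+/- (0.18 ± 0.08, limma adjusted p = 0.138), and it passed without WT replicate 3, its highest WT value (38.8 TPM, limma adjusted p = 0.0475 without it). Acsl3, the most abundant of these synthetase genes, ranged from 77.4 to 98.2 TPM in WT and from 72.3 to 91.0 TPM in PIM1+/- (-0.13 ± 0.10, limma adjusted p = 0.411).

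No gene of the carnitine shuttle was called. Cpt1a, whose product makes acylcarnitine at the outer mitochondrial membrane and sets the rate of entry, measured 137, 119, 135 and 127 TPM in WT and 101, 114, 118 and 119 TPM in PIM1+/-. The genotypes met at 119 TPM, and the log2 fold change of -0.19 ± 0.07 missed the threshold (limma adjusted p = 0.0860). Slc25a20, the carrier that exchanges acylcarnitine for carnitine across the inner membrane, was lower on average by a like amount, at 137 ± 10.97 and 121 ± 7.98 TPM (-0.18 ± 0.07, limma adjusted p = 0.122), and it passed without WT replicate 3 (-0.24, limma adjusted p = 0.0479). Cpt2, which releases the acyl-CoA inside, had close to identical means (-0.00 ± 0.05, 95% interval -0.11 to 0.11), and so did Crat, the short-chain carnitine acetyltransferase gene (0.04 ± 0.08). The shuttle genes therefore spanned -0.19 to 0.04 in log2 fold change.

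In the mitochondrial spiral, Hadhb was the called gene. It encodes the beta subunit of the trifunctional protein, which carries the thiolase, and measured 179, 165, 169 and 171 TPM in WT against 136, 148, 146 and 146 TPM in PIM1+/-. The genotypes did not overlap, and the mean fell from 171 ± 6.01 to 144 ± 5.25 TPM (ratio 0.843, -0.25 ± 0.05, limma adjusted p = 0.00899). Hadha, the alpha subunit gene that shares the 85-base interval with it, also lay lower in every PIM1+/- library, at 177, 174, 183 and 171 TPM against 161, 156, 159 and 164 TPM, and stood just outside the threshold (-0.14 ± 0.04, limma adjusted p = 0.0519). Hadha over Hadhb within a library was 1.03 ± 0.0437 in WT and 1.11 ± 0.0518 in PIM1+/-. Processed pseudogenes Gm13910 and Gm9108 match the Hadhb transcript at 99.8% and 97.6% identity, but they were listed at no more than 1.13 and 0.05 TPM, small beside Hadhb.

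The other spiral enzymes were close to level between genotypes. Among the acyl-CoA dehydrogenase genes, which start each turn, Acadm (medium chains) measured 119 ± 5.82 and 108 ± 8.02 TPM (-0.14 ± 0.06, limma adjusted p = 0.166), and Acadl (long chains) 142 ± 5.22 and 143 ± 7.23 TPM (0.01 ± 0.05). Acadvl (very long chains) measured 140.4 ± 9.45 and 136 ± 4.21 TPM (-0.04 ± 0.06), with the limit that 42.9% of its exonic bases overlap Dvl2 on the opposite strand and the strand setting of the counting is not given. Hadh, the dehydrogenase of shorter chains, went from 271 ± 6.34 to 256 ± 17.2 TPM (-0.08 ± 0.06, limma adjusted p = 0.354), and the thiolase gene Acaa2 from 117 ± 8.91 to 109.8 ± 1.97 TPM (-0.08 ± 0.06, limma adjusted p = 0.373). Of the 7 spiral genes, 6 had a negative log2 fold change and 1 passed the test.

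Eci1 and Etfa, at other mitochondrial steps, rose. Eci1 (chromosome 17, 24426641 to 24439348) encodes the isomerase that lets unsaturated acids enter the spiral, and measured 64.6, 56.4, 60.6 and 64.7 TPM in WT against 71.2, 79.7, 74.9 and 77.1 TPM in PIM1+/-. All PIM1+/- libraries were higher, with means of 61.6 ± 3.96 and 75.7 ± 3.60 TPM (ratio 1.23, 0.29 ± 0.06, limma adjusted p = 0.0125). Decr1, the mitochondrial reductase for polyunsaturated acids, pointed the other way at 34.7 ± 1.38 and 31.4 ± 1.95 TPM (-0.14 ± 0.06, limma adjusted p = 0.151), with overlap between genotypes. The isomerase and reductase genes of unsaturated acids therefore did not share a direction.

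The electron transfer flavoprotein takes electrons from all the acyl-CoA dehydrogenases. Etfa, its alpha subunit gene (chromosome 9, 55454508 to 55512243), measured 202.5, 198, 177 and 186 TPM in WT and 246, 228, 224 and 203.1 TPM in PIM1+/-. The lowest PIM1+/- library only just cleared the highest WT library, and the mean rose from 191 ± 11.4 to 225 ± 17.5 TPM (ratio 1.18, 0.23 ± 0.07, limma adjusted p = 0.0438). The call was the least firm of the 7. It was lost when any 1 of the WT replicates was left out (limma adjusted p = 0.0589, 0.0571, 0.104 and 0.0989 without replicates 1 to 4) and without PIM1+/- replicate 1, 2 or 3 (limma adjusted p = 0.0955, 0.0932 and 0.0867). It was likewise lost without the trend, with upper quartile scaling and without the filter (limma adjusted p = 0.0784, 0.0506 and 0.0916). Etfb, the beta subunit gene, lay on the same side without passing (335 ± 26.4 and 373 ± 19.1 TPM, 0.16 ± 0.07, limma adjusted p = 0.133), and it shares 53.0% of its exonic bases with the readthrough gene Gm45233, listed at no more than 1.86 TPM. Etfdh, which passes the electrons on to ubiquinone, was level at 65.8 ± 3.55 and 64.9 ± 1.72 TPM (-0.02 ± 0.05, limma adjusted p = 0.845).

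None of the 4 peroxisomal members was called. Ehhadh, the bifunctional enzyme gene of the hydration and oxidation reactions, measured 27.5, 25.0, 22.6 and 27.3 TPM in WT and 24.0, 24.6, 24.0 and 26.7 TPM in PIM1+/- (-0.04 ± 0.08, limma adjusted p = 0.767). Decr2, the peroxisomal counterpart of Decr1, measured 29.5 ± 2.27 and 30.6 ± 2.24 TPM (0.05 ± 0.08, limma adjusted p = 0.692). Both overlapped across their range. Acaa1a, the main peroxisomal thiolase gene, measured 124, 105, 108 and 123 TPM in WT and 95.9, 104, 104 and 94.96 TPM in PIM1+/-, a narrow separation that missed the threshold (-0.20 ± 0.07, limma adjusted p = 0.0755) and passed without WT replicate 2 (-0.24, limma adjusted p = 0.0486).

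Acaa1b, a second thiolase gene that is strongly PPAR-alpha responsive in mouse liver, was far lower and varied most. It measured 8.74, 10.2, 2.46 and 11.6 TPM in WT and 6.18, 6.56, 5.75 and 3.88 TPM in PIM1+/-. WT replicate 3 stood below all other libraries and the remaining WT libraries above all PIM1+/- libraries, so the overall difference had a wide error (-0.35 ± 0.37, limma adjusted p = 0.555) and passed without WT replicate 3 (-0.77, limma adjusted p = 0.0233). The transcripts of Acaa1a and Acaa1b are 96.6% identical over 81.0% of the Acaa1a transcript, so the division of reads between them is uncertain. Eci2, whose isomerase works in both organelles, was level at 46.5 ± 3.52 and 45.7 ± 2.98 TPM (-0.02 ± 0.07, limma adjusted p = 0.871), and shares 91.8% identity over 51.0% of its transcript with Eci3, listed at 8.54 to 13.7 TPM.

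Set side by side, the mitochondrial and the peroxisomal steps both differed little between genotypes, apart from the wide error of Acaa1b. The 16 mitochondrial members had 2 called higher and 1 lower (18.8%, beside 17.5% of all genes), a median log2 fold change of -0.06 and values from -0.25 to 0.29, and every 95% interval lay within -0.35 to 0.43. The 4 peroxisomal members had a median of -0.12, with intervals within -0.36 to 0.22 for the 3 other than Acaa1b and -1.18 to 0.48 for Acaa1b. Summed over the mitochondrial members, the level was 2275, 2143, 2099 and 2188 TPM in WT and 2129, 2171, 2158 and 2131 TPM in PIM1+/-, which overlapped. The peroxisomal sum was 189.9, 173, 159.6 and 192 TPM in WT and 154, 167, 164 and 159 TPM in PIM1+/-, which also overlapped through WT replicate 3. The mitochondrial sum was 12.2 ± 0.738 times the peroxisomal sum in WT and 13.4 ± 0.350 times in PIM1+/-, with WT replicate 3 (13.2) inside the PIM1+/- range of 13.0 to 13.8. Neither these 2 sums nor their ratio separated the genotypes without overlap. Sums by role differed in direction and were not tested. The carnitine shuttle sum (336 to 371 TPM in WT, 298 to 333 TPM in PIM1+/-) was lower in every PIM1+/- library. So was the spiral sum (1106 to 1163 and 1032.5 to 1082 TPM). The sum of Eci1 and Decr1 was higher in every PIM1+/- library (90.5 to 101 and 104 to 111 TPM). In that sum Eci1 was higher (means 61.6 and 75.7 TPM) and Decr1 lower (34.7 and 31.4 TPM). The electron transfer sum overlapped (547 to 640 and 618 to 693 TPM).

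**Figure D3:**
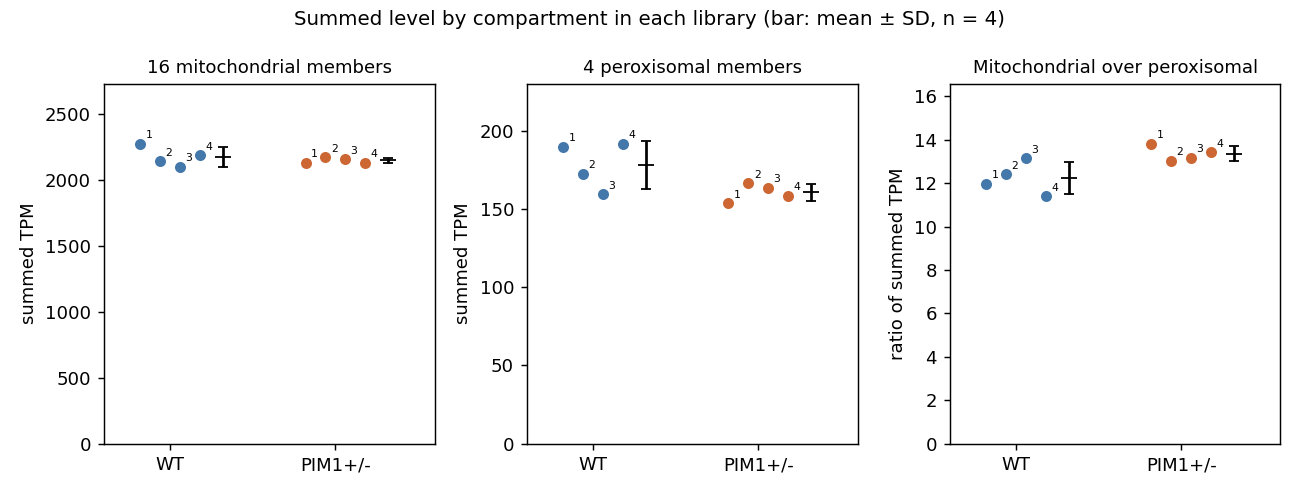
Summed TPM of the 16 mitochondrial members, of the 4 peroxisomal members, and the ratio of the sums, in every library, with bars for mean ± SD (n = 4 per genotype) and axes from 0. The mitochondrial sums run from 2099 to 2275 TPM, the peroxisomal sums from 154 to 192 TPM, and the genotypes overlap in all panels.

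Further genes of these organelles were examined in 3 lists. Called lower were 3 of 15, 1 of 17 and 1 of 16 tested genes, and none was called higher. Over all tested genes, 8.54% were called lower and 8.93% higher. Of 16 other genes of mitochondrial fatty acid oxidation, 15 were tested, none was called higher and 3 were called lower, with a median of -0.06. The 3 were the acyl-CoA thioesterase gene Acot2 (3.96 ± 0.390 to 2.52 ± 0.278 TPM, -0.50 ± 0.11, limma adjusted p = 0.0140) and the acyl-CoA dehydrogenase family genes Acad11 (-0.27 ± 0.07, limma adjusted p = 0.0276) and Acad10 (-0.39 ± 0.10, limma adjusted p = 0.0319). Of 18 other peroxisomal lipid oxidation genes, 17 were tested and 1 was called, Cat, the catalase gene, which fell from 48.8 ± 4.23 to 39.1 ± 4.26 TPM although its genotypes overlapped (-0.31 ± 0.09, limma adjusted p = 0.0430). The median of that list was 0.01. Of 16 peroxisome assembly genes, all tested, Pex5, the import receptor gene, was called lower (-0.25 ± 0.08, limma adjusted p = 0.0482) and none higher, with a median of -0.08.

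Among the PPAR targets outside the oxidation pathway, Plin2 fell. Plin2 (chromosome 4, 86648386 to 86670060) measured 114, 98.5, 99.0 and 102 TPM in WT and 49.4, 75, 73.9 and 70.8 TPM in PIM1+/-. The genotypes were clearly apart, with PIM1+/- replicate 1 well below the rest, and the mean went from 103 ± 7.25 to 67.3 ± 12.1 TPM (ratio 0.650, -0.63 ± 0.13, limma adjusted p = 0.0103). Angptl4, which encodes a secreted lipoprotein lipase inhibitor, measured 2.03, 1.93, 0.95 and 2.42 TPM in WT and 0.75, 0.97, 1.18 and 1.16 TPM in PIM1+/-. Its WT replicates 1, 2 and 4 were above all PIM1+/- libraries and WT replicate 3 was among them, so it missed the threshold (-0.47 ± 0.18, limma adjusted p = 0.116) and passed without WT replicate 3 (-0.64, limma adjusted p = 0.0245). Pdk4, the kinase gene that shifts fuel use from glucose to fat, measured 8.62, 8.91, 4.29 and 14.1 TPM in WT and 10.8, 11.4, 8.08 and 9.53 TPM in PIM1+/- (0.22 ± 0.27, limma adjusted p = 0.623), with the PIM1+/- values inside the WT range.

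Of 21 further PPAR target genes, 13 were tested, 3 were called higher and 2 lower, beside 8.93% and 8.54% of all tested genes, with a median of 0.04. Slc27a2, a fatty acid transporter and very long chain acyl-CoA synthetase gene, rose from 3.75 ± 0.493 to 7.96 ± 0.945 TPM (0.92 ± 0.12, limma adjusted p = 0.00122). The desaturase genes Fads1 and Fads2 moved in opposite directions, Fads1 from 3.91 ± 0.681 to 9.15 ± 2.10 TPM (1.04 ± 0.16, limma adjusted p = 0.00294) and Fads2 from 136 ± 9.61 to 93.6 ± 9.49 TPM (-0.53 ± 0.08, limma adjusted p = 0.00313). The other calls were Creb3l3, higher, and Slc27a1, lower. For comparison, 12 fatty acid synthesis genes gave 2 called higher and 2 lower with a median of 0.02. Acly, which makes cytosolic acetyl-CoA, fell (-0.60 ± 0.11, limma adjusted p = 0.00769), while the elongase gene Elovl1 (0.31 ± 0.06, limma adjusted p = 0.00991) and the malic enzyme gene Me1 (0.995 ± 0.255, limma adjusted p = 0.0279) rose.

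WT replicate 3 held the lowest WT value for 16 of the 32 tested members, against 1, 11 and 4 for WT replicates 1, 2 and 4. The genes in which it stood lowest by a wide margin, picked after their values were seen, were Ppara (4.94 TPM against 6.94 to 8.57), Pdk4, Angptl4, Acaa1b and Vnn1 (0.93 TPM against 2.51 to 2.65), the last a pantetheinase gene and PPAR-alpha target. Without that library 690 of all tested genes were called lower instead of 1090, and 5 members instead of 3, Acaa1b, Angptl4 and Slc25a20 joining and Ppargc1a leaving, and Acsl5 replaced Etfa among the members called higher. Within PIM1+/-, replicate 1 was lowest for 15 members and replicate 4 for 11, against 3 each for replicates 2 and 3.

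**Figure D4:**
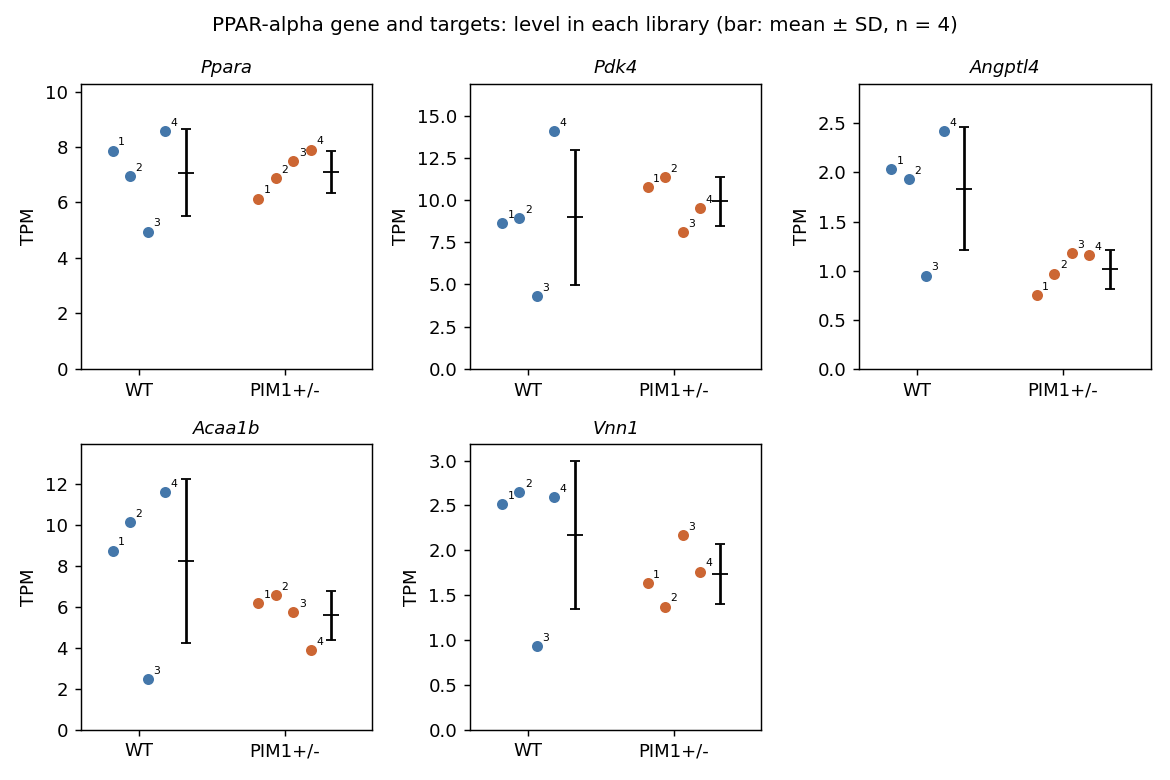
Level in TPM of Ppara and 4 genes known as its targets in every library, with replicate numbers and bars for mean ± SD (n = 4 per genotype). WT replicate 3 is the lowest WT library in all 5 panels, at 2.46 TPM for Acaa1b and 4.29 TPM for Pdk4. The genes were picked after their values were seen.

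The scale of TPM moved with genotype. Mitochondrially encoded transcripts made up 16.9% ± 1.01 of the summed TPM in WT and 13.4% ± 0.557 in PIM1+/-, and leaving them out and rescaling shifted the median of all tested genes from -0.01 to -0.07. The split of all calls then went from 51.1% higher to 35.3% higher, with 856 genes called higher and 1568 lower of 13046 tested. The 32 tested members went from 4 higher and 3 lower to 3 higher and 8 lower. Etfa lost its call (0.17, limma adjusted p = 0.0910), while Hadha (-0.20, limma adjusted p = 0.0116), Acaa1a (-0.26, limma adjusted p = 0.0360), Cpt1a (-0.25, limma adjusted p = 0.0383), Ppard (-0.25, limma adjusted p = 0.0409) and Decr1 (-0.20, limma adjusted p = 0.0450) gained one. On that scale the mitochondrial median was -0.12 and the peroxisomal median -0.18, beside -0.07 for all genes. Pparg (0.79, limma adjusted p = 0.00229), Fabp2 (0.58, limma adjusted p = 0.00333), Plin2 (-0.69, limma adjusted p = 0.00777), Hadhb (-0.31, limma adjusted p = 0.00406), Eci1 (0.24, limma adjusted p = 0.0367) and Ppargc1a (-0.60, limma adjusted p = 0.0334) were called on both scales.

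Some markers of other cells and of position along the bowel also differed between the genotypes. Over all tested genes, 8.93% were called higher and 8.54% lower. Of 11 T and NK cell markers, 7 were tested and 5 were higher, and their summed level was 5.87 to 11.6 TPM in WT and 22.3 to 47.5 TPM in PIM1+/-, led in p by the granzyme genes Gzmb (0.793 to 6.37 TPM, 2.04 ± 0.17, limma adjusted p = 0.000141) and Gzma (1.91 ± 0.26, limma adjusted p = 0.00199) and by Nkg7 (1.57 ± 0.26, limma adjusted p = 0.00457). The sum of 9 macrophage markers was 2.01 to 4.06 TPM in WT and 7.12 to 10.7 TPM in PIM1+/-. Of 2 tested genes 1 was higher, C1qa (means 0.56 and 4.8 TPM, 1.76 ± 0.37, limma adjusted p = 0.0131), and it made up most of the difference in the mean sums. The other markers averaged 1.32 TPM or less in either genotype. Csf1r (0.19 and 0.21 TPM), Lyz2 (0.71 and 0.925 TPM) and Mrc1 (0.42 and 0.36 TPM) overlapped, and Cd163 was at 0 in every library. The sum of 12 fibroblast and muscle markers was 2.02 to 3.76 TPM in WT and 7.44 to 18.1 TPM in PIM1+/-. Both tested genes were higher, Fbln1 (means 1.02 and 4.66 TPM, limma adjusted p = 0.000531) and Fn1 (0.515 and 5.2 TPM, limma adjusted p = 0.00251). These genes made up most of the PIM1+/- sum. Col1a1, Col1a2 and Col3a1 did not exceed 0.33 TPM in any library. Dcn averaged 0.23 and 0.745 TPM with overlap, while Des and Myh11, at or under 0.12 TPM, were lower in every PIM1+/- library. The 8 B and plasma cell markers (4.28 to 14.5 and 8.28 to 13.5 TPM) and the 7 endothelial markers (3.55 to 5.76 and 3.22 to 4.25 TPM) gave no call among 2 tested genes each. Pparg is also abundant in fat cells, and of the 8 adipocyte markers Adipoq, Cfd, Lep, Retn and Cidea were at 0 in all 8 libraries, Plin1 and Fabp4 did not exceed 0.18 TPM, and the sum (3.16 to 4.38 and 3.33 to 5.49 TPM) was nearly all Lipe.

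The summed level of 12 posterior Hox genes, which mark the distal bowel, was 178 to 232 TPM in WT and 54.1 to 122 TPM in PIM1+/-. Of these genes 6 were tested, with a median of -0.75, and 4 were lower, beside 8.54% of all tested genes. They included Hoxb13 (-1.27 ± 0.24, limma adjusted p = 0.00746), Hoxa10 (-0.75 ± 0.18, limma adjusted p = 0.0208) and Hoxa13 (-0.74 ± 0.19, limma adjusted p = 0.0277). Among 14 colon epithelium markers, all tested, 6 were higher and 2 lower, beside 8.93% and 8.54% of all tested genes, with a median of 0.14. The called markers included Car4 (-0.85 ± 0.08, limma adjusted p = 0.000269), Cdx2 (0.62 ± 0.07, limma adjusted p = 0.000583) and Vil1 (0.36 ± 0.06, limma adjusted p = 0.00418). Of 13 small intestinal enterocyte markers, 9 were tested, with a median of -0.18. Only Alpi was called, higher (0.88 ± 0.16, limma adjusted p = 0.00708), where 8.93% of all tested genes were called higher. A posterior Hox score had a correlation of -0.733 with genotype over the 8 libraries. With it as a covariate, 168 of all tested genes were called higher and 75 lower, instead of 1139 and 1090, so most genes of any kind lost their call. In that fit Pparg kept its call (0.54, limma adjusted p = 0.0331) and the other 6 called members lost theirs. Among these, Eci1 (0.33, limma adjusted p = 0.137) and Hadhb (-0.20, limma adjusted p = 0.210) had log2 fold changes near those without the covariate, Fabp2 was at 0.48 (limma adjusted p = 0.0969) and Plin2 at -0.35 (limma adjusted p = 0.286), and Ppargc1a (-0.20, limma adjusted p = 0.663) and Etfa (0.08, limma adjusted p = 0.685) were much smaller. With a score of the non-epithelial markers as a covariate no member was called by limma and 3 were under an unadjusted p of 0.05, where 20 of all genes were called higher and 1 lower. That score has a correlation of 0.906 with genotype over the 8 libraries, so the fit could call little of any gene's difference. Its log2 fold changes were 0.53 for Pparg, 0.46 for Fabp2, 0.36 for Eci1, 0.18 for Etfa, -0.48 for Plin2, -0.46 for Ppargc1a and -0.20 for Hadhb. The genes behind both scores differ between the genotypes, and the parts of position along the bowel and of other cells in the members' differences cannot be told apart from genotype.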

How the data were processed

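Per the labels' protocols, TRIzol was used for RNA extraction, and the series' design text names the Illumina NovaSeq as the sequencer. The deposited table held TPM per gene, which the authors obtained with RSEM according to that text. HISAT2, StringTie, edgeR and the build GRCm38.p6 are listed in the submitters' processing notes, with no roles. Not given in the sources used here are the annotation release, strand setting, filters and read depth. Because TPM forces each library to a fixed sum, a shift in abundant transcripts moves all values, and RSEM divides reads of near-identical genes by estimation. Some genes of the lists are counted but not reported by name here. All per-sample columns were analysed (0 left out).

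A linear model on genotype was fitted to log2(TPM + 1) with limma 3.58.1 in R 4.3.3 (two-sided, empirical Bayes, mean-variance trend). The 12760 genes that reached 1 TPM in 4 or more libraries were tested, p-values were adjusted by Benjamini-Hochberg, and calls were made under 0.05. The fit was checked on simulated data. The members, the other gene lists and the tests were chosen with earlier results of these data known. The text names all members, Pim1 and, from each other list, up to 3 called genes with the smallest adjusted p. Creb3l3, Slc27a1, Vnn1 and the marker genes given only by level were chosen after their values were seen. Coordinates and exon overlaps came from GENCODE M21 on GRCm38, near copies from BLAST+ 2.17.0, promoters from RefSeq, and figures from matplotlib 3.10.9.

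Results were recomputed with limma lacking the trend, with upper quartile scaling, after rescaling without mitochondrially encoded genes, unfiltered, for genes averaging at least 5 TPM, with a pseudocount of 0.1, with a replicate block, with covariates for 6 posterior Hox genes or 15 non-epithelial genes, at an adjusted p of 0.01, and with each library left out. The adjustment covered 12755 genes with upper quartile scaling, 13046 after rescaling, 26705 unfiltered and 9587 averaging at least 5 TPM.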

Additional observations from a re-analysis of the deposited data

Results flagged for a closer look

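In 4 of the 68 groups of 4 libraries examined, 1 library stood apart by Dixon's criterion at its 95% critical value, where chance alone marks about 1 group in 20. Fabp2 was low in PIM1+/- replicate 4 at 654 TPM, against 788 to 811 TPM in the other PIM1+/- libraries. Cpt2 was low in WT replicate 3 at 61.1 TPM, against 66.1 to 66.6 TPM in the other WT libraries. Hadhb was low in PIM1+/- replicate 1 at 136 TPM, against 146 to 148 TPM in the others, and Plin2 was low in the same library at 49.4 TPM, against 70.8 to 75 TPM. Fabp2, Hadhb and Plin2 each stayed past the threshold without the library named here.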

How the results depend on the processing

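The 7 called members kept the sign of their fold change in every alternative run, and of 575 member values under alternatives 491 kept both direction and side of the threshold, 41 lost the call, 11 gained one and 32 changed sign, the last all among uncalled members. The cause was not tested where none is named.

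Genes called higher over the whole table (1139) were 168 with the Hox covariate, 20 with the non-epithelial covariate, 471 at an adjusted p of 0.01 and 746 to 1004 with a library left out. Those called lower (1090) were 666 without a filter, 689 with the replicate block, 75 and 1 with these covariates, 365 at 0.01 and 616 to 1054 with a library left out. Members called higher (4) were 2 with the replicate block, 1 and 0 with the Hox and non-epithelial covariates, 2 at 0.01 and 3 to 5 with a library left out. Members called lower (3) were 2 without the trend, with upper quartile scaling and without a filter (Ppargc1a lost), 8 after rescaling without mitochondrially encoded genes, 1 with the block, 0 and 0 with the covariates, 1 at 0.01 and 2 to 5 with a library left out. Mitochondrial members called higher (2) were 1 without the trend, with upper quartile scaling, after rescaling and without a filter, 0 with the block, with either covariate and at 0.01, and 1 to 2 with a library left out. Mitochondrial members called lower (1) were 4 after rescaling, 0 with the block and either covariate, and 1 to 2 with a library left out. Peroxisomal members called lower (0) were 1 after rescaling and 0 to 1 with a library left out. The mitochondrial median was -0.12 after rescaling and the peroxisomal median -0.24 with the non-epithelial covariate. Same-numbered libraries showed no shared deviation (correlations of deviations -0.136, 0.0320, -0.0332 and -0.0710). Libraries of different number gave -0.117 to 0.0973. With 4 libraries per genotype these values cannot decide whether the numbers pair the samples, and the titles give replicate numbers only.

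Log2 fold changes that changed sign were Ppara (-0.0315 rescaled, -0.58 non-epithelial), Cpt2 (0.00951 upper quartile), Crat (-0.0148 rescaled, -0.0313 Hox, -0.0554 non-epithelial), Acadl (-0.0523 rescaled, -0.0187 Hox), Hadh (0.0257 Hox), Etfdh (0.00608 Hox, 0.00826 non-epithelial), Eci2 (0.0391 non-epithelial), Decr2 (-0.00819 rescaled, -0.0963 non-epithelial) and Pdk4 (-0.16 Hox, -0.79 non-epithelial). With a library left out, Ppara ran from -0.12 to 0.11, Cpt2 from -0.0336 to 0.00774, Crat from -0.0180 to 0.0861, Acadl from -0.0184 to 0.0359, Etfdh from -0.0440 to 0.0153, Eci2 from -0.0607 to 0.0230 and Pdk4 from -0.0556 to 0.45. Read depth is unknown, so what it limits cannot be given.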
